A study of Danio rerio with 6 samples.

Results

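The miR-26 family was followed in follicular cells, the somatic layers stripped from zebrafish ovarian follicles. Its members were taken as every row with the zebrafish prefix dre- and the miRNA number 26, and 3 of the 289 miRNAs listed in each sample met this rule, dre-miR-26a-5p, dre-miR-26a-3p and dre-miR-26a-2-3p. The study compared follicular cells of stage IIIb follicles, which are mid- to late vitellogenic and can be induced to mature, with those of the smaller, early vitellogenic stage IIIa follicles, which cannot. Each stage had 3 samples, and each sample was a pool of cells from many follicles of several fish. No strain, age or treatment was given, the cell layers were taken off by hand without a sort, and the labels do not say whether one fish gave follicles to both stages. The p-values below therefore measure the spread between pools.

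MicroRNAs pair with messenger RNAs through their seed, bases 2 to 8, and lower the stability or translation of these targets. The miR-26 family is conserved among vertebrates, and its genes lie inside genes of the CTDSP phosphatases, which act on the tail of RNA polymerase II. In mammals the 5p strand is the guide, and EZH2, a histone methyltransferase, is a known target. In pig granulosa cells miR-26b has been tied to SMAD4, the shared mediator of TGF-beta signaling, and to apoptosis.

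The mature sequences of the 3 members, and of a close relative listed under the name of another species, are shown because the seed separates them and because similar sequences can compete for reads. They are given 5′ to 3′ as DNA letters as deposited, with bases 2 to 8 in capitals.
dre-miR-26a-5p: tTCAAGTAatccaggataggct
dre-miR-26a-3p: cCTATTCGggatgacttggttc
dre-miR-26a-2-3p: cCTATTCAtgattacttgcact
oha-miR-26-3-3p: cCTATTCTtgattacttg
No other of the 289 miRNAs had the seed of any of these 4 sequences. In RNAduplex, dre-miR-26a-5p formed 17 base pairs with dre-miR-26a-3p (−20.2 kcal/mol) and 16 with dre-miR-26a-2-3p (−19.1 kcal/mol). With oha-miR-26-3-3p, dre-miR-26a-5p formed 17 base pairs (−20.9 kcal/mol), and no unrelated sequence was paired for comparison. Both members with a 3p name thus resemble opposite strands of the same guide, as does oha-miR-26-3-3p. dre-miR-26a-3p and dre-miR-26a-2-3p differed from each other at 7 of 22 positions. The nearest relative of a member was oha-miR-26-3-3p, which differed from dre-miR-26a-2-3p over its 18 bases only by A8T, counted from the 5′ end with the base of dre-miR-26a-2-3p first. Reads were mapped to zebrafish precursors first, with 1 mismatch allowed, and only the rest to those of other species. Reads with the sequence of oha-miR-26-3-3p could therefore have been counted under dre-miR-26a-2-3p. No other row was within 1 mismatch of a member.

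The RefSeq annotation of the GRCz12tu assembly holds 4 zebrafish mir-26 genes on 4 chromosomes, each within the span of a ctdsp gene. They are dre-mir-26a-1 on chromosome 9 within ctdsp1, mir26a-2 on chromosome 2 within ctdsplb, mir26a-3 on chromosome 24 within ctdspla and dre-mir-26b on chromosome 23 within ctdsp2. The table used gives no exons, so whether they lie in introns was not examined. The precursor sequence that the authors list for oha-miR-26-3-3p holds the whole sequence of dre-miR-26a-5p at bases 9 to 30. They list it beside chr23:24675207-24675303 on the minus strand of GRCz11, but it has 85 bases where this span has 97, so it is not the sequence of that span as listed. The RefSeq gene dre-mir-26b, also on chromosome 23, has 97 bases too. Because it is given in another assembly, the positions were not compared, and whether oha-miR-26-3-3p comes from this gene was not tested. The values give dre-miR-26a-5p 1 count per sample with no split by gene, and none of the 289 listed miRNAs was named dre-miR-26b. Whether reads from the dre-mir-26b gene were counted under dre-miR-26a-5p was not tested.

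The deposited values are normalized counts, the reads of each miRNA divided by the authors' library size parameter. Their total per sample ranged between 1819026 and 3166619 in stage IIIb and between 1779302 and 2196896 in stage IIIa. Low values were mostly whole multiples of 1 step, which was read as the worth of 1 read, and dividing by it gave 2575578 to 9045233 reads in the stage IIIb samples and 1129114 to 4005857 in the stage IIIa samples. Stage IIIa replicate 1 had the fewest. The gonadal miR-202 arms took 16.3% to 23.4% of the counts in stage IIIb and 16.0% to 18.2% in stage IIIa. The 6 listed miRNAs of red blood cells were all lower in stage IIIb without overlap (background 7.96% of the 289). They were arms of miR-451, miR-144 and miR-2188, and took 0.0904% to 0.283% of the counts in stage IIIb and 1.08% to 1.47% in stage IIIa. The 5 listed miRNAs of white blood cells took 0.221% to 0.326% in stage IIIb and 0.368% to 0.555% in stage IIIa, but 1 of the 5 had lower counts in stage IIIb without overlap, and their summed counts overlapped, with 4511 to 10318 in stage IIIb and 6550 to 11398 in stage IIIa. The summed counts of 4 epithelial miRNAs were higher in stage IIIb without overlap, 3243 to 7154 against 2007 to 3092. Singly, 1 of the 4 was (background 11.8%), and their summed shares overlapped. The liver miRNA dre-miR-122 had 71.8 to 784 counts in stage IIIb and 0 to 112 in stage IIIa. The lists of striated muscle, endothelium, smooth muscle and stroma, and oocyte and early embryo overlapped in counts and shares. What part these cell types have in the values of dre-miR-26a-5p was not tested.

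dre-miR-26a-5p was one of the most abundant miRNAs of the follicular cells and made up 99.8% to 99.9% of the family's counts in every sample. It had 125177, 174042 and 208507 normalized counts in the 3 stage IIIb samples, against 76867, 108707 and 109293 in the 3 stage IIIa samples. Every stage IIIb sample was above every stage IIIa sample, as for 34 of the 289 miRNAs (11.8%). The means were 169242 ± 41872 in stage IIIb and 98289 ± 18554 in stage IIIa (SD, n = 3 each), a ratio of 1.72. In limma the log2 fold change, stage IIIb over stage IIIa, was 0.77 (SE 0.31, 95% interval 0.09 to 1.46). Its unadjusted p was 0.0308 and its p adjusted over the 289 miRNAs was 0.266, so the difference did not pass the threshold of 0.05. Leaving out any single sample other than stage IIIb replicate 1 also took the unadjusted p above 0.05.

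**Figure D1:**
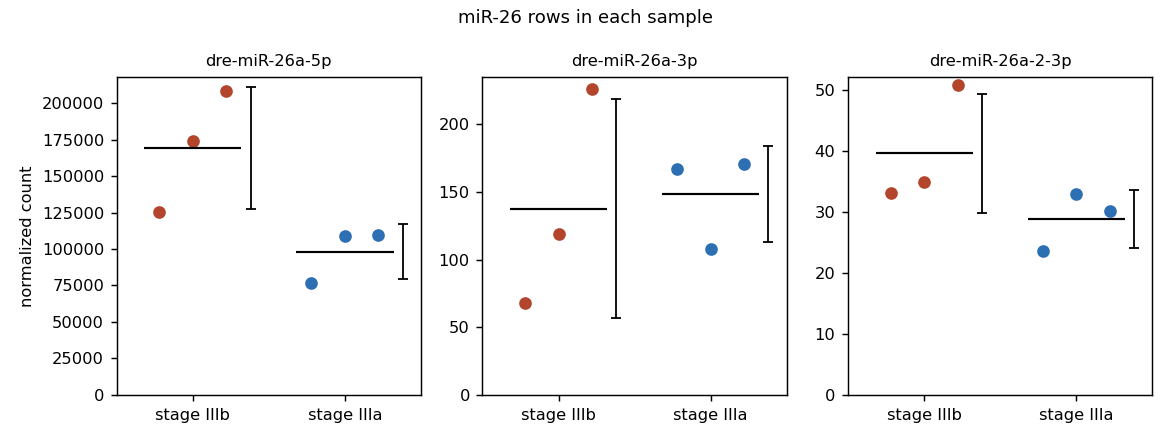
Normalized counts of the 3 miR-26 rows in each sample, with stage IIIb on the left and stage IIIa on the right of each panel. Points are samples, horizontal lines are stage means and the brackets beside them are ± 1 SD (n = 3). The stage IIIb points of dre-miR-26a-5p lie between 125177 and 208507, all above the stage IIIa points, whereas those of dre-miR-26a-3p overlap with stage IIIa.

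The remaining counts of the family came from the 2 members named 3p. dre-miR-26a-3p, the partner strand of dre-miR-26a-5p, had 67.8, 119 and 227 normalized counts in the stage IIIb samples and 167, 108 and 171 in the stage IIIa samples. The stages overlapped, with the lowest and the highest value both in stage IIIb. Its means were 138 ± 81.0 in stage IIIb and 149 ± 35.2 in stage IIIa (SD, n = 3 each), and limma gave -0.25 on the log2 scale (SE 0.50, adjusted p = 0.849). Without stage IIIb replicate 1 this value was 0.17, so its direction rests on that sample.

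dre-miR-26a-2-3p, the partner strand named after the mir-26a-2 gene, had 33.2, 34.9 and 50.8 normalized counts in stage IIIb, against 23.6, 32.9 and 30.1 in stage IIIa. The stages did not overlap, but the gap between 33.2 and 32.9 is far smaller than the counting error of the recovered reads. These were 42 to 145 in stage IIIb and 15 to 60 in stage IIIa. They fall short of the paper's filter of 100 counts in every replicate of a stage. The recovered reads and this counting error are thus uncertain. Its means were 39.6 ± 9.70 in stage IIIb and 28.9 ± 4.75 in stage IIIa (SD, n = 3 each), and limma put the log2 fold change at 0.43 with SE 0.61 (adjusted p = 0.770). On the scale of log2(normalized count + 1), changes of so low a miRNA are slightly understated. With 0.1 added in place of 1, the log2 fold change was 0.44.

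In limma, 0 of the 3 members passed an adjusted p of 0.05, where 2.42% of the 289 miRNAs were called higher and 2.08% lower in stage IIIb. Without adjustment, 1 of the 3, dre-miR-26a-5p, had a p of at most 0.05 and was higher, where 9.69% of the 289 were higher by this rule and 5.19% lower. With voom weights computed from recovered reads, limma also passed 0 of the 3 after adjustment (1.73% of the 289 higher and 3.11% lower) and 1 without it (6.57% higher and 18% lower). An unmoderated test on untransformed counts passed 0 of the 3 after adjustment (0% of the 289 in either direction) and 0 without it (5.54% higher and 5.54% lower). In 2 of the 3, dre-miR-26a-5p and dre-miR-26a-2-3p, the counts were higher in stage IIIb without overlap, where 11.8% of the 289 were. For dre-miR-26a-2-3p this rests on 33.2 against 32.9 counts, and its shares overlapped. The median log2 fold change of all 289 miRNAs was 0.15 on the deposited scale and -0.16 with each library set to the same total. dre-miR-26a-5p lay 0.62 above the median on the deposited scale. A scaling shifts all miRNAs of a library alike, so this distance is nearly fixed in advance. It was 0.617 to 0.620 over the 4 scalings run. The log2 fold change of dre-miR-26a-5p itself was 0.46 at equal totals (limma adjusted p = 0.124) and 0.60 with median-of-ratios scaling (limma adjusted p = 0.0673). Its adjusted p ranged between 0.0673 and 0.622 over all alternatives, both in limma. For dre-miR-26a-3p the distance to the median was -0.40 and for dre-miR-26a-2-3p it was 0.28, the same at equal totals for the reason just given.

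**Figure D2:**
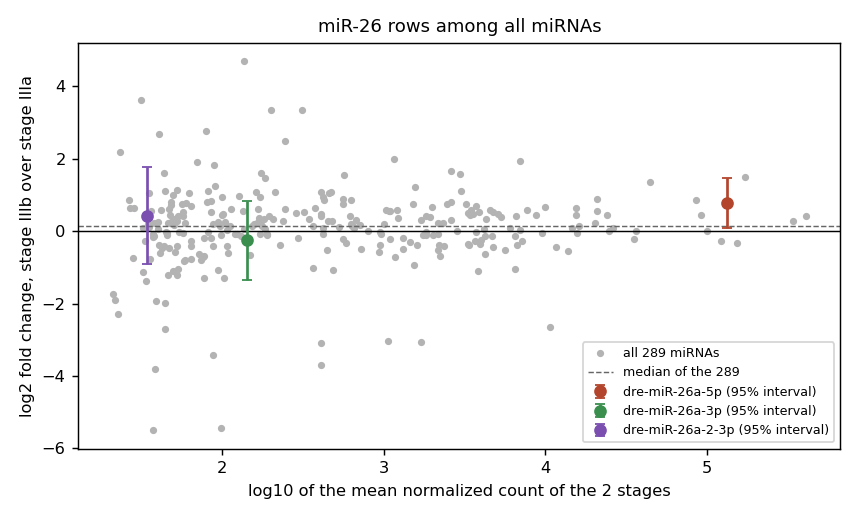
Log2 fold change, stage IIIb over stage IIIa, against the mean normalized count (log10) of the 289 miRNAs in grey, with the 3 miR-26 rows in color and their 95% limma intervals. The dashed line is the median of all miRNAs, 0.15. dre-miR-26a-5p, at 0.77, has an interval of 0.09 to 1.46, and the intervals of both 3p rows span 0.

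As a share of all normalized counts, which does not depend on the scaling, dre-miR-26a-5p took 6.88%, 6.51% and 6.58% in the stage IIIb samples and 4.32%, 4.95% and 5.32% in the stage IIIa samples. All 3 stage IIIb shares were above all stage IIIa shares, as for 10.7% of the 289 miRNAs, while 18.3% had shares that were lower in stage IIIb without overlap. The difference of the means, 6.66% ± 0.197 in stage IIIb and 4.86% ± 0.505 in stage IIIa (SD, n = 3 each), was 1.8 percentage points. Its p was 0.10 in an exact permutation test (two-sided), below which 3 samples against 3 cannot go. Counting error was small, with an exact (Clopper-Pearson) 95% interval of 4.28% to 4.36% in the shallowest sample, an interval that covers counting error only. In bulk RNA, more cells that hold a miRNA and more of it in each cell cannot be told apart.

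The shares of dre-miR-26a-5p varied less among the stage IIIb samples, with a coefficient of variation of 2.96%, than among the stage IIIa samples, with 10.4%, a difference that was not tested. It ranked 4th of 289 in each stage IIIb sample, and 7th, 6th and 5th in stage IIIa replicates 1, 2 and 3. Its neighbours in mean level were dre-miR-92a-3p above and dre-miR-181a-5p below it, and it exceeded each of them in 3 of the 6 samples, the stage IIIb samples. With the 6 red blood cell miRNAs left out of the total, an alternative added after the values were seen, the shares of dre-miR-26a-5p averaged 6.67% ± 0.204 in stage IIIb and 4.92% ± 0.514 in stage IIIa (SD, n = 3 each). With the abundant dre-miR-202-5p, dre-miR-143 and dre-miR-92a-3p left out of the total, they averaged 10.8% ± 0.0562 in stage IIIb and 8.26% ± 0.840 in stage IIIa (SD, n = 3 each). The stages remained without overlap in both. The red blood cell miRNAs held at most 1.47% of the counts of a sample, so leaving them out could barely change the share. Any dre-miR-26a-5p of those cells also stays in the count, so their part in it was not tested.

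**Figure D3:**
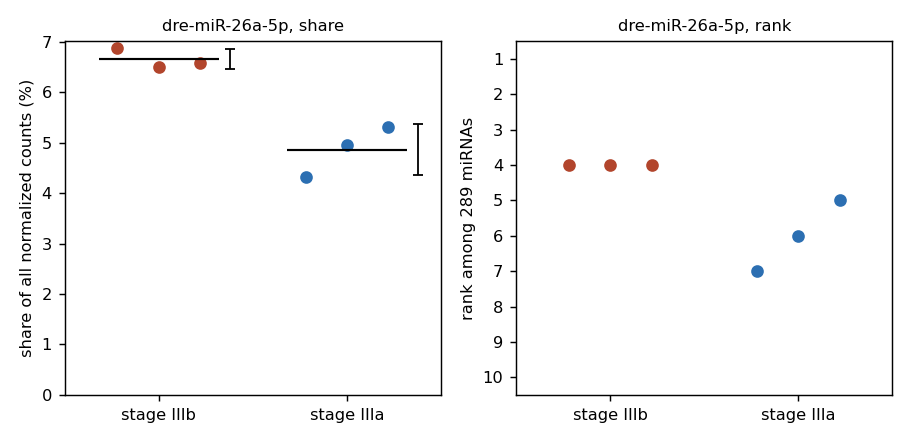
Left, share of all normalized counts taken by dre-miR-26a-5p in each sample, with stage means (lines) and ± 1 SD (brackets, n = 3). Right, its rank among the 289 miRNAs, where 1 is the most abundant. The stage IIIb samples lie between 6.51% and 6.88% and all at rank 4, and the stage IIIa samples lie between 4.32% and 5.32% at ranks 5 to 7.

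The 3p rows took very small shares, dre-miR-26a-3p 0.00511% ± 0.00181 in stage IIIb and 0.00754% ± 0.00233 in stage IIIa, and dre-miR-26a-2-3p 0.00158% ± 0.000262 in stage IIIb and 0.00143% ± 0.0000898 in stage IIIa (SD, n = 3 each). Neither was separated between the stages (exact two-sided permutation test, p = 0.20 for dre-miR-26a-3p and p = 0.50 for dre-miR-26a-2-3p). Of the 289 miRNAs they stood at rank 173 and at rank 276 by mean count. Their neighbours in that order did not stand apart, since dre-miR-26a-3p exceeded dre-miR-107a-5p above it and dre-miR-489 below it in 3 of 6 samples each. dre-miR-26a-2-3p likewise exceeded dre-miR-196b, next above it in the mean, in 4 of 6 samples.

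Ratios within a library ask whether dre-miR-26a-5p moved with the other abundant miRNAs, and 9 such ratios were computed. Against dre-miR-181a-5p, known for its role in lymphocytes, the ratio was 1.51, 1.38 and 1.64 in the stage IIIb samples and 0.602, 0.762 and 0.859 in the stage IIIa samples. dre-miR-26a-5p was thus the more abundant of the pair in each stage IIIb sample and the less abundant in each stage IIIa sample. The ratio was 2.05-fold higher in stage IIIb (log2 difference 1.04, SE 0.17). Against dre-miR-92a-3p, of the miR-17-92 class of proliferation miRNAs, the ratio was 2.15-fold higher, with 1.27 ± 0.0812 in stage IIIb and 0.650 ± 0.318 in stage IIIa (SD, n = 3 each). Without stage IIIa replicate 1, where dre-miR-92a-3p took 14.0% of the counts, the log2 difference was 0.64 in place of 1.10. Against dre-miR-21 it was 1.71-fold higher, with 1.49, 2.02 and 1.54 in the stage IIIb samples and 0.724, 1.04 and 1.24 in the stage IIIa samples.

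Against dre-miR-22a-3p the ratio was lower in stage IIIb, with 0.708, 0.638 and 0.662 in the stage IIIb samples and 1.21, 0.936 and 1.19 in the stage IIIa samples. Against dre-miR-27b-3p it was also lower, with 2.73 ± 0.315 in stage IIIb and 4.30 ± 1.63 in stage IIIa (SD, n = 3 each), a log2 difference of -0.60 that was -0.30 without stage IIIa replicate 1. In both of these ratios, as in the 3 higher ones, the stages did not overlap. Each of these 5 ratios had p = 0.10 in the exact permutation test (two-sided), the smallest possible, and 0.18 after Benjamini-Hochberg adjustment over the 9.

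The remaining 4 ratios overlapped between the stages. The ratio to dre-miR-27c-3p varied least, with 1.62, 1.41 and 1.58 in stage IIIb and 1.65, 1.59 and 1.60 in stage IIIa (log2 difference -0.08, SE 0.06, exact permutation test p = 0.30). Leaving out single samples kept that difference between -0.11 and -0.02. The ratios to dre-miR-30d, dre-miR-143, a miRNA of smooth muscle and stroma, and dre-miR-202-5p, a miRNA of the gonads, had log2 differences of 0.33 (SE 0.24), 0.49 (SE 0.33) and 0.35 (SE 0.21), with p = 0.20, 0.20 and 0.30 in the exact permutation test. Single samples moved them, to 0.11 for dre-miR-30d without stage IIIa replicate 1, to 0.25 for dre-miR-143 without stage IIIa replicate 2 and to 0.53 for dre-miR-202-5p without stage IIIb replicate 2. Over the 273 other miRNAs above 0 in every sample, the ratio of dre-miR-26a-5p to the miRNA was higher in stage IIIb without overlap for 123 (45.1%) and lower for 10 (3.66%). These ratios share dre-miR-26a-5p and are not independent.

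**Figure D4:**
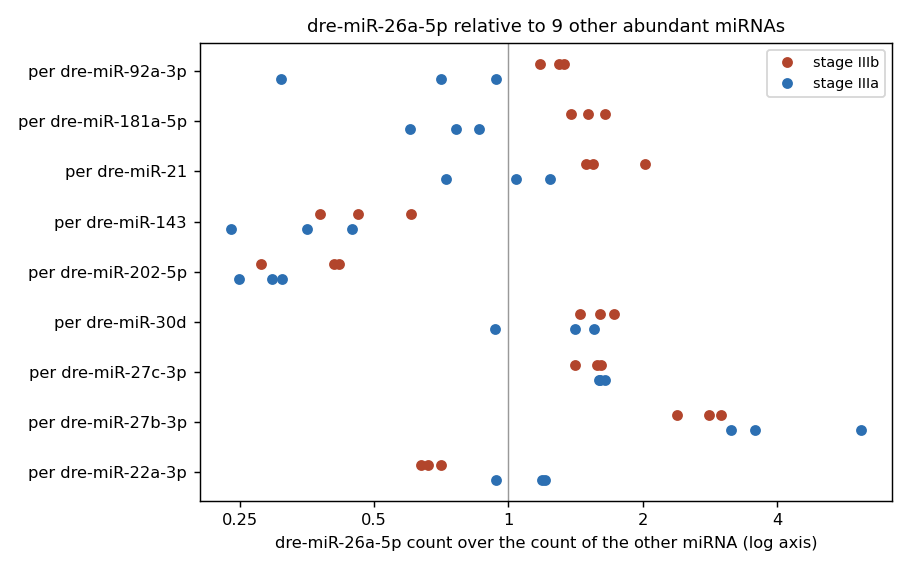
Ratio of the count of dre-miR-26a-5p to that of each of 9 other abundant miRNAs in every sample, on a log axis, with stage IIIb in red above stage IIIa in blue. Ratios run in order of the log2 difference between the stages, 1.10 for dre-miR-92a-3p at the top and -0.73 for dre-miR-22a-3p at the bottom. The points of dre-miR-27c-3p all lie between 1.41 and 1.65.

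The miRNAs whose share followed that of dre-miR-26a-5p most closely were members of the miR-27, miR-22 and miR-23 families. Among the 186 other miRNAs with a mean of at least 100 normalized counts and no value of 0, Pearson's r of the log2 share across the 6 samples was 0.975 for dre-miR-27c-3p, 0.958 for dre-miR-22a-3p, 0.951 for dre-miR-27b-3p, 0.948 for dre-miR-23b and 0.936 for dre-miR-22a-5p. These values are a description over 6 samples of 2 stages. All 5 miRNAs had shares in stage IIIb above all shares in stage IIIa, as for 10.7% of the 289. This follows largely from the choice, since the share of dre-miR-26a-5p separates the stages too. Within the 3 stage IIIb samples r was -0.514, -0.935, 0.184, 0.018 and 0.372 in the same order. Within the 3 stage IIIa samples it was 0.997, 0.701, 0.991, 0.977 and 0.742. The share of dre-miR-27c-3p was 4.18% to 4.62% in stage IIIb and 2.62% to 3.32% in stage IIIa, and that of dre-miR-23b was 0.0290% to 0.0354% in stage IIIb and 0.0175% to 0.0247% in stage IIIa. Among the stage IIIa samples dre-miR-27c-3p and dre-miR-26a-5p had the same order, both lowest in replicate 1 and highest in replicate 3. Among the stage IIIb samples they did not, since dre-miR-27c-3p was highest (4.62%) in replicate 2, where dre-miR-26a-5p was lowest (6.51%). The partner strand dre-miR-26a-3p did not follow dre-miR-26a-5p across the 6 samples, with r = -0.639 and place 136 of the 186. Its r was -0.555 within the stage IIIb samples and -0.344 within the stage IIIa samples. Since dre-miR-26a-5p was not split by gene, this need not hold for a single hairpin.

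Each 3p row was also set against dre-miR-26a-5p within its library. dre-miR-26a-3p had 0.542, 0.682 and 1.09 counts per 1000 counts of dre-miR-26a-5p in the stage IIIb samples and 2.17, 0.994 and 1.56 in the stage IIIa samples. The highest stage IIIb sample lay above the lowest stage IIIa sample, so the stages overlapped. The means were 0.770 ± 0.283 in stage IIIb and 1.58 ± 0.590 in stage IIIa (SD, n = 3 each), with a log2 difference of -1.02 (SE 0.44, exact two-sided permutation test p = 0.20). Counting error was smaller than this spread, since the exact 95% intervals were 0.439 to 0.661 in stage IIIb replicate 1 and 1.78 to 2.63 in stage IIIa replicate 1.

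dre-miR-26a-2-3p had 0.265, 0.200 and 0.243 counts per 1000 counts of dre-miR-26a-5p in the stage IIIb samples and 0.308, 0.303 and 0.275 in the stage IIIa samples. The stage IIIb values were all lower (log2 difference -0.33, SE 0.13, exact permutation test p = 0.10, and 0.20 after adjustment over the 2 arms). Relative to dre-miR-26a-5p, 123 of the 273 other miRNAs above 0 in every sample (45.1%) were likewise lower in stage IIIb without overlap. Counting error was large for so few recovered reads, which are themselves uncertain. The exact 95% intervals were 0.144 to 0.271 in stage IIIb replicate 2 and 0.172 to 0.507 in stage IIIa replicate 1. Whether the gap between the stages exceeds counting error was not tested. dre-miR-26a-3p exceeded dre-miR-26a-2-3p in every sample, by 2.04 to 4.46 times in stage IIIb and by 3.28 to 7.07 times in stage IIIa.

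miR-26a was among the most one-sided of the miRNAs that listed both arms under one name. Of 32 such pairs, each with its less abundant arm set against the more abundant one, the ratio was lowest for miR-92a and next lowest for miR-26a, with a mean of 1.17 counts of dre-miR-26a-3p per 1000 counts of dre-miR-26a-5p, where the median of the pairs was 64.9. This place holds among the 32 pairs only, since arms that were not listed, had a 0 or stood under another name were not paired. One such row is xla-miR-143-5p, with a mean of 382 in stage IIIb where dre-miR-143 had 370351. In 5 of the 32 pairs (15.6%) the less abundant arm was relatively lower in stage IIIb without overlap, and in 2 higher. Since dre-miR-26a-5p was not split by gene, these ratios need not be those of a single hairpin.

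**Figure D5:**
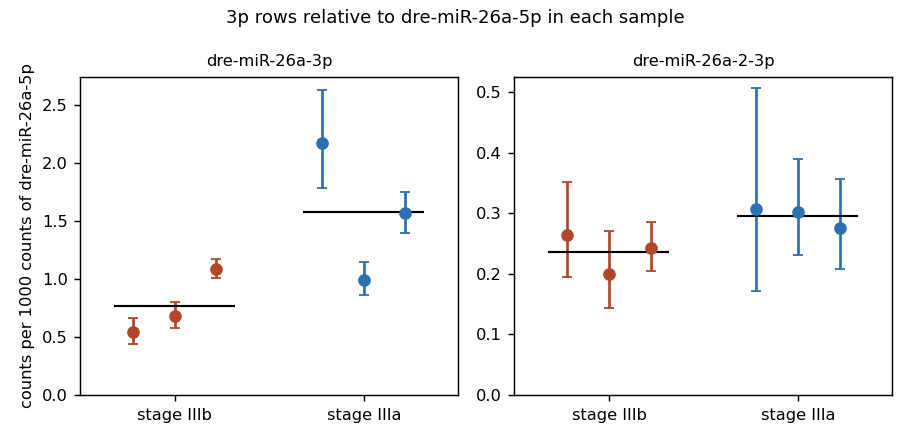
Counts of dre-miR-26a-3p (left) and dre-miR-26a-2-3p (right) per 1000 counts of dre-miR-26a-5p in each sample, with exact 95% intervals for counting error and stage means as lines. The 2 panels have different axes. dre-miR-26a-3p lies between 0.542 and 1.09 in stage IIIb and between 0.994 and 2.17 in stage IIIa, and dre-miR-26a-2-3p between 0.200 and 0.265 in stage IIIb and between 0.275 and 0.308 in stage IIIa.

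Recovered reads were also looked at row by row. Both 3p rows came to whole reads in all 6 samples within 0.01 read. For dre-miR-26a-3p these were 96, 143 and 647 in stage IIIb and 106, 197 and 318 in stage IIIa. The step was fitted to values under 400, which include both 3p rows, so this was largely fixed in advance. dre-miR-26a-5p lay above 400 in every sample and outside this fit. It came to a whole number in stage IIIa replicate 2 alone. Its recovered reads were 177239.667, 209694.417 and 595585.083 in the stage IIIb samples and 48778.75, 198219 and 203334.75 in the stage IIIa samples. How the rows were counted was not tested. oha-miR-26-3-3p, which differs from dre-miR-26a-2-3p by the 1 base named above, had 55.1, 68.1 and 113 normalized counts in stage IIIb and 28.4, 75.1 and 46.8 in stage IIIa. It exceeded dre-miR-26a-2-3p in every sample, and its stages overlapped (0.68 on the log2 scale with SE 0.56 in limma, adjusted p = 0.590). How many reads with the sequence of oha-miR-26-3-3p were counted under dre-miR-26a-2-3p was not tested.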

How the data were processed

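Small RNA of 6 samples was sequenced. The authors processed the reads with ACGT101-miR, removed common RNA families and repeats, mapped the rest to zebrafish miRBase precursors with a mismatch allowed, then to precursors of other species and the genome, and divided counts by a library size parameter. The build named in the submitters' notes is GRCz11. The deposited values are these normalized counts (signal, not whole numbers), 1 per miRNA and sample, without pooling. Stages were compared on log2(normalized count + 1) with limma 3.58.1 in R 4.3.3 (empirical Bayes with trend, two-sided, Benjamini-Hochberg over 289 miRNAs, no filter). A check on simulated data drew the noise of each miRNA independently, so it did not cover shifts that all miRNAs of a library share. The study names Student's test on normalized counts. Its unmoderated form was run as an alternative. Shares and ratios were compared with an exact permutation test over 20 assignments in Python 3.11.15. The step taken as 1 read was the largest of which at least 80% of the values under 400 were whole multiples (tolerance 0.01 read). It reached 82.8% to 85.9%, so recovered reads served alternatives, counting intervals and checks only. The paper's filter was 100 counts or more in every replicate of stage IIIa or of stage IIIb. Recovered reads fell short of it in both stages for dre-miR-26a-2-3p (down to 42 in stage IIIb and 15 in stage IIIa) and PC-5p-19602_298 (down to 0 and 45). Why they differ was not tested, so recovered reads and their counting intervals are uncertain. Duplexes were computed with RNAduplex 2.7.2. Named miRNAs besides the members are the 9 other abundant miRNAs, the 5 most similar in share, neighbours in level and possible sharers of reads. The members and lists were chosen with earlier results of these data known. No 2 samples of a stage agreed within sampling noise. Real-time PCR and target predictions were not used here.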

Additional observations from a re-analysis of the deposited data

How the results depend on the processing

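No member passed an adjusted p of 0.05 under any alternative run. dre-miR-26a-5p kept its direction in all. Its log2 fold changes were 0.45 to 0.78, with an adjusted p of 0.0673 to 0.398 in limma and 0.467 in the unmoderated test. With single samples left out they were 0.60 to 0.97 (limma adjusted p of 0.0899 to 0.622). dre-miR-26a-3p ranged between -0.69 and 0.17 with single samples left out (0.17 without stage IIIb replicate 1). dre-miR-26a-2-3p ranged between 0.24 and 0.54 in the same way, between 0.08 and 0.46 over the other alternatives, and was not in the fit filtered at 100 normalized counts. The direction of the share of dre-miR-26a-5p, of both 3p ratios and of the 9 ratios to abundant miRNAs did not change in the alternatives run. Of all 289 miRNAs, 7 were called higher and 6 lower, with equal totals 5 and 8, with median-of-ratios scaling 6 and 9, and with equal upper quartiles 6 and 8. The number higher was 3 without the trend, 2 at equal totals with the replicate block, an alternative added after the values were seen, and 1 to 6 with single samples left out (1 without stage IIIb replicate 3, 2 without stage IIIa replicate 1 and 1 without stage IIIa replicate 2). The unmoderated test on untransformed counts called 0 higher and 0 lower, and 16 and 16 at an unadjusted p under 0.05. The cause was not tested.

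The replicate block left 4 called higher and 5 lower, and gave dre-miR-26a-5p an adjusted p of 0.121. Same-numbered samples deviated from their stage means with correlations of 0.103, 0.280 and -0.0336 for replicates 1, 2 and 3, and not every sample correlated best with its own number, so the numbers were not taken to pair the samples. Low counts limit both 3p rows, above all the 15 recovered reads of dre-miR-26a-2-3p in stage IIIa replicate 1.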

Other observations

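One of the miRNAs that the authors predicted from a hairpin alone matched the opposite strand of a miR-26a sequence. It was found after the values were seen, in a search of all rows for sequence shared with the members. In capitals are the bases of PC-5p-19602_298 that are the reverse complement of dre-miR-26a-2-3p, 20 of 22, and the matching bases of dre-miR-26a-2-3p.
PC-5p-19602_298: TGCAAGTAATCATGAATAGGcc
dre-miR-26a-2-3p: CCTATTCATGATTACTTGCAct
Its predicted hairpin of 72 bases lies at chr2:21375529-21375600 on the minus strand of GRCz11. The reverse complement of this hairpin holds the whole of dre-miR-26a-5p at bases 9 to 30 and the whole of dre-miR-26a-2-3p at bases 45 to 66. In RefSeq the gene mir26a-2 is also on chromosome 2, in another assembly, so the positions were not compared. The row had 0, 0 and 48.7 normalized counts in stage IIIb replicates 1, 2 and 3, where 3 reads, the limit that a count of 0 allows, come to 2.12 and 2.49 normalized counts in replicates 1 and 2. It had 112, 24.7 and 45.2 in the stage IIIa samples, so the stages overlapped. These values are 139 reads in stage IIIb replicate 3, and 71, 45 and 84 reads in stage IIIa replicates 1, 2 and 3. The reads of dre-miR-26a-2-3p were 47, 42 and 145 in stage IIIb replicates 1, 2 and 3, and 15, 60 and 56 in stage IIIa replicates 1, 2 and 3. PC-5p-19602_298 thus had more reads than dre-miR-26a-2-3p in stage IIIa replicates 1 and 3 and fewer in the other 4 samples. In stage IIIb replicates 1 and 2 it had 0 against 47 and 0 against 42. Whether the reads of PC-5p-19602_298 are RNA of the opposite strand was not tested.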
